A study of Mus musculus with 2 samples.

Results

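The genes described here are 10 of the cyclic AMP, follicle cyclic GMP and gap junction pathways that control meiotic prophase arrest of the oocyte. They are Gpr3, Gpr12, Gnas, Adcy3, Adcy9, Pde3a, Npr2, Nppc, Gja4 and Gja1. They were chosen by name, as every array probe that carries a member's symbol in the scanner files, which gave 29 probes of the 56600 on the array and 10 of its 37074 gene names. RNA came from unfertilised oocytes of C57BL/6 mice, as 1 pool of 213 oocytes of wild type (MUL1 +/+) and 1 pool of 123 oocytes of the Mul1 knockout (MUL1 -/-), and Mul1 encodes a ubiquitin ligase anchored in the outer mitochondrial membrane. After amplification and Cy3 labelling, each pool was read on 1 single-colour Agilent array, and the arrays share a slide and a recorded scan time. The sources used here give neither the age of the mice, the meiotic stage of the oocytes nor the deleted part of Mul1. By its title the study is about oxidative stress in oocytes without Mul1 and the embryos they give, and the comparison here asks how these transcripts differ between the pools. With 1 array per genotype there is no spread between replicates, so no test was possible and no difference below is shown to exceed biological variation.

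In the ovarian follicle the oocyte makes its own cyclic AMP, through receptors that signal without an added ligand, the stimulatory G protein and adenylyl cyclase, and this cyclic AMP keeps protein kinase A active and meiosis arrested. The phosphodiesterase that would break it down is held in check by cyclic GMP, which granulosa and cumulus cells make when the C-type natriuretic peptide activates its receptor. Cyclic GMP reaches the oocyte through gap junctions, channels built of connexins, and luteinising hormone ends the arrest by lowering it.

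The probes are 60-base oligonucleotides, and the sequences below show what some of them read. Transcript names are the array's own labels, and whether a probe also reads other transcripts of its gene was not tested. Whole probes are given for the natriuretic peptide receptor gene Npr2 (chr4:43661226-43661285, plus strand), the cyclase gene Adcy3 (chr12:4211535-4211594, plus strand) and the G protein gene Gnas (chr2:174167177-174167338, plus strand). Positions are those of build mm9 that the files carry. The Gnas probe covers 162 bases of the genome and so runs across a gap in it. No exon annotation of mm9 was used here. Each has at least 1 sense reading frame with no stop codon, 2 for Npr2, 2 for Adcy3 and 1 for Gnas. Many other member probes have such a frame too, and whether a probe lies in coding sequence was not tested.
Npr2 NM_173788: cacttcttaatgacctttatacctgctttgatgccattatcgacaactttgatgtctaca
Adcy3 NM_138305: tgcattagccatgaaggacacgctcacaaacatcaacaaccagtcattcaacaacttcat
Gnas NM_001077510: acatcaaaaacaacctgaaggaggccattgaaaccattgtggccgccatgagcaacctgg

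The connexin gene Gja1 has 8 probes, and 5 of them read alternative upstream parts of the transcript. Of these, 4 form pairs that join different upstream stretches to the same downstream one. A stretch of 30 bases is shown of each, with the bases shared within a pair in capitals. The probes for AY427559 (chr10:56099183-56101556) and AY427558 (chr10:56097423-56101558) share a run of 49 bases. Those for XM_011243119 (chr10:56097389-56107356) and XM_006512541 (chr10:56097108-56107358) share 17. Across the pairs, the bases before the capitals of AY427558 also stand before those of XM_011243119. The AY427558 and XM_011243119 probes thus share a short upstream stretch and differ downstream. The probe for XM_011243118 (chr10:56099134-56099193) ends in the 11 bases that open the AY427559 probe, printed in capitals. All lie on the plus strand.
Gja1 AY427559: aaccttgaacgGATCCTTCTGTTTCAGCGT
Gja1 AY427558: taggatactGATCCTTCTGTTTCAGCGTGC
Gja1 XM_011243119: gacttaggatactGAGGTGCCCAGACATGG
Gja1 XM_006512541: cgcttttacgagGAGGTGCCCAGACATGGg
Gja1 XM_011243118: gtccaaaagaccactgggcAACCTTGAACG

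Well above background, by the scanner software's own call, were 66.0% of probes for wild type and 64.5% for the knockout, and the lowest such signals were 12.9 and 15.8. The Mul1 probe for NM_026689 read 3353 and 1074, a 3.05-fold lower value on the knockout array, and its probe for ENSMUST00000105815 read 19.3 and 23.1. Oocyte markers were measured for 14 of 15 genes on both arrays, all but Figla, with a median log2 difference of 0.22 and no probe 2-fold apart. All 18 markers of cumulus and granulosa cells, where Npr2, Nppc and Gja1 are chiefly made, were measured on both arrays as well. Of 21 probes for blood and immune cell markers, the knockout array was at least 2-fold higher at 16 and lower by that much at 4. Oviduct and endothelial markers had 3 of 8 at least 2-fold higher, and theca and stroma markers none of 11 at least 2-fold apart.

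Of the 29 probes, 22 were well above background on both arrays, 2 on 1 array and 5 on neither, and 9 of the 10 genes had at least 1 probe measured on both. Differences are given as log2 of knockout minus wild type, with each array scaled to its own 75th percentile. Over the 22 probes the median was 0.08, against 0.02 over all 35255 probes measured on both. At least 2-fold apart was 1 of the 22, higher on the knockout array, where 2.72% of all probes were higher and 1.86% lower by that much. At least 1.5-fold apart were 5 of the 22 or 22.7%, all probes of Gnas and Gja1, against 13.8% of all probes. The members lay above 0 at 15 probes and below 0 at 7, and 53.3% of all probes lay above 0. With spike-in scaling the median of all probes was 0.15 and that of the members 0.22, and the share of all probes at least 2-fold apart became 3.71% higher and 1.27% lower. The scanner software's signal errors, combined, came to 0.20 to 0.36 on the log2 scale, and 11 of the 22 differences were within their own such error. That error describes 1 spot and not the spread between pools. Its median was 0.20, near its lowest value, so at many probes it served as a nearly fixed cutoff. In pooled RNA, fewer cells of a type and less RNA per cell cannot be told apart.

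**Figure D1:**
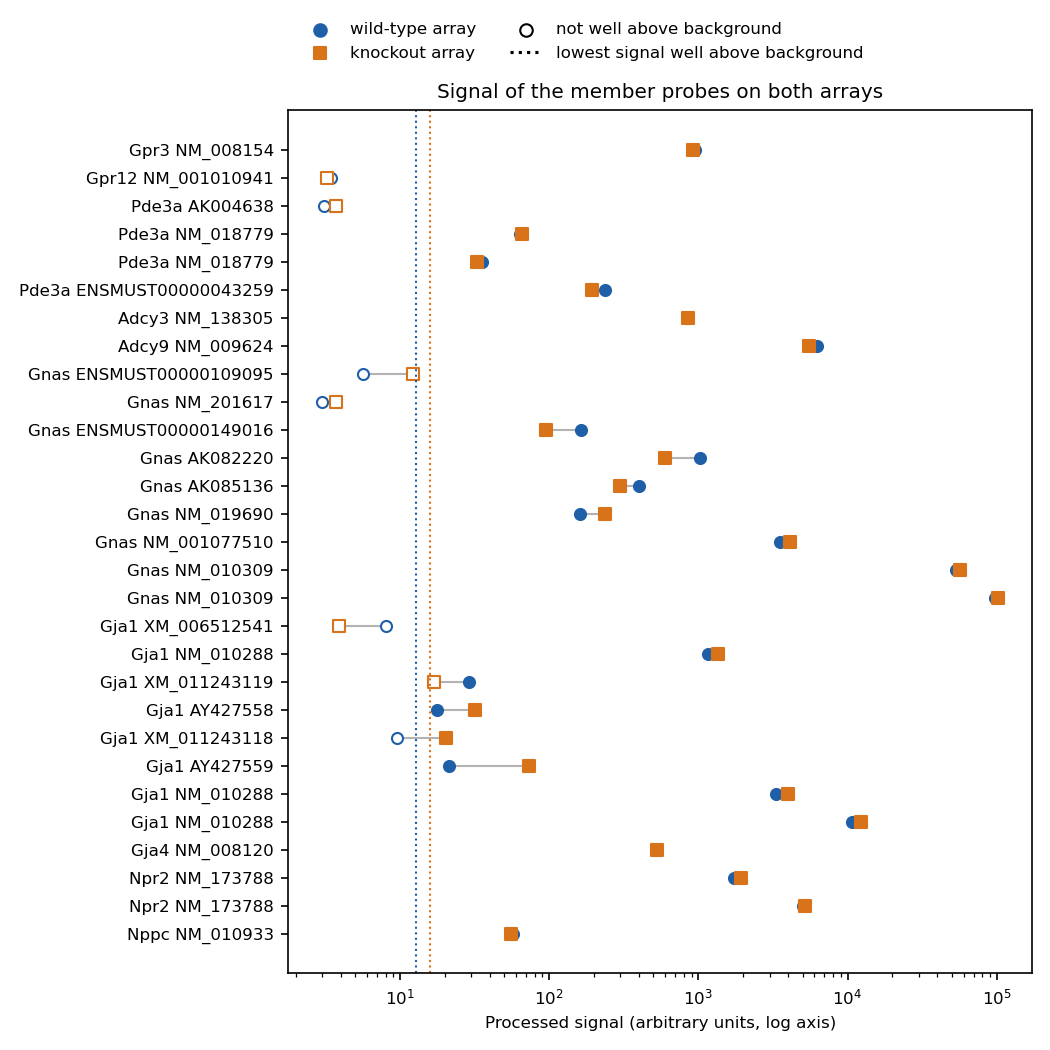
Processed signal in arbitrary units on a log axis for each of the 29 member probes, with the wild-type array as circles and the knockout array as squares, open where the probe was not well above background. The paired symbols of most filled probes overlap, and the widest gaps belong to the dim Gja1 probes, 4 Gnas probes and Gnas ENSMUST00000109095, which is open on both arrays.

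Of the receptors that drive cyclic AMP, Gpr3 was measured and read alike. Gpr3 encodes the constitutively active receptor that holds mouse oocytes in arrest, and its single probe, for NM_008154 (chr4:132765611-132765670, minus strand), read 949 for wild type and 927 for the knockout. These signals were 73.8 and 58.6 times the lowest that counted as well above background. The log2 difference was 0.00 with a scanner error of 0.20, lying just under 0, and it was 0.13 on the spike-in scale and 0.01 with normexp background correction. Gpr12, the related receptor known from rat oocytes, read 3.43 and 3.25 at its probe for NM_001010941 (chr5:147394520-147394579, minus strand). Both lay below the lowest signal called well above background, so no fold is given for Gpr12.

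The member cyclase genes, Adcy3 and Adcy9, also lay close to 0. Adcy3, the cyclase linked to cyclic AMP supply in rodent oocytes, read 841 and 854 at its probe for NM_138305, a log2 difference of 0.06 with a scanner error of 0.20. Adcy9, another membrane-bound cyclase, read 6256 and 5559 at its probe for NM_009624 (chr16:4287678-4287737, minus strand). Its log2 difference was -0.14, within the scanner error of 0.20, and came to 0.00 on the spike-in scale. Neither cyclase gene was thus separated from 0 by more than the scanner error of a spot.

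Gnas, which encodes the stimulatory G protein alpha subunit, was measured at 7 probes, of which the 4 toward its 3′ end lay above 0 and the 3 farther upstream below 0. Its locus is imprinted and makes several transcripts from alternative first exons. The probes for NM_010309 (chr2:174172010-174172069 and chr2:174171933-174171992) read 98175 and 102436, and 53103 and 56408, with differences of 0.09 and 0.12. The junction probe for NM_001077510 read 3540 and 4086, a difference of 0.24 with a scanner error of 0.20. Those 3 probes lay above 0 by at most 1.18-fold.

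Farther upstream the Gnas differences were larger and lay on both sides of 0. The probe for AK082220 (chr2:174159362-174159421) read 1019 and 596, a difference of -0.74 or 1.67-fold. The probe for ENSMUST00000149016 (chr2:174154248-174154307) read 162 and 95.1, again -0.74. The probe for AK085136 (chr2:174161660-174161719) read 402 and 297, a difference of -0.41. The probe that lies between these and the 3′ probes, for NM_019690 (chr2:174163501-174163560), read 161 and 238, a difference of 0.59 or 1.51-fold higher on the knockout array. The scanner error was 0.20 to 0.21 at these 4 probes, and the direction of each was the same in all 7 other settings of scaling, background and flags. At least 1.5-fold apart were the probes for AK082220, ENSMUST00000149016 and NM_019690. In the signal ranges where those 3 lie, 20.9% (ENSMUST00000149016 and NM_019690) and 13.0% (AK082220) of all probes were that far apart. The remaining Gnas probes, for ENSMUST00000109095 (5.67 and 12.2) and NM_201617 (under 4 on each array), were not well above background on either array. Whether the upstream probes read spliced or unspliced RNA was not tested.

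**Figure D2:**
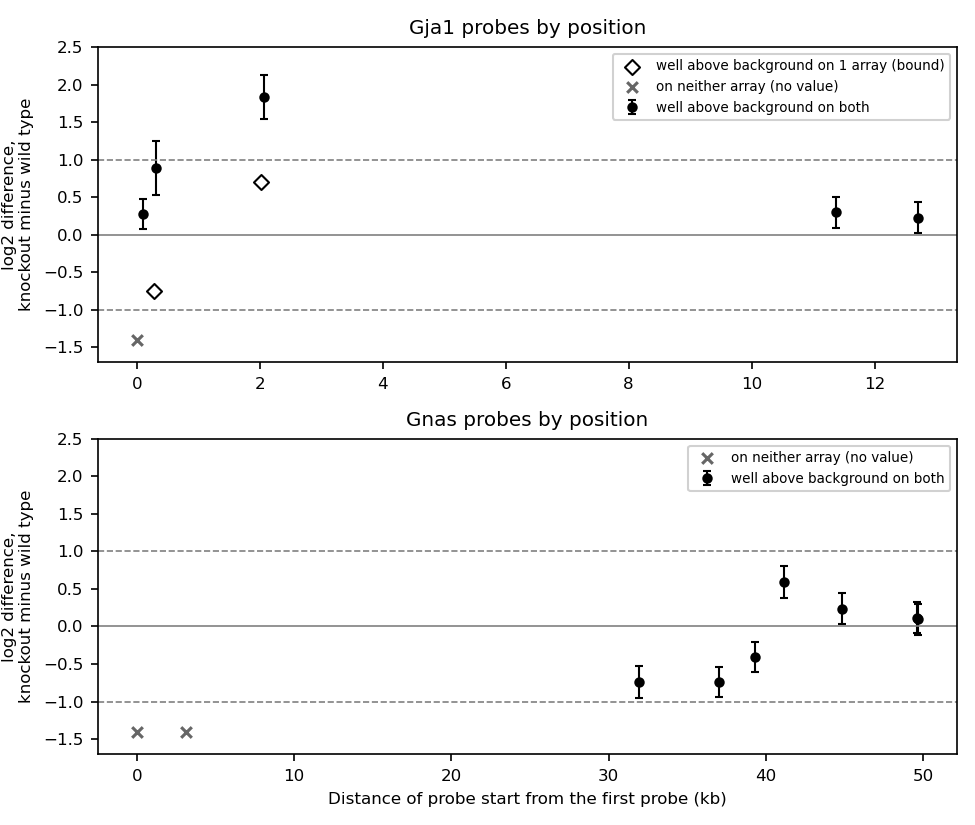
Log2 difference, knockout minus wild type, against the distance in kb of each probe's start from the first probe of the gene, for Gja1 (top) and Gnas (bottom), with the scanner error as bars and 2-fold lines dashed. Filled points are probes well above background on both arrays, open diamonds are bounds for probes above it on 1 array, and crosses mark probes on neither, placed at the bottom with no value. Gnas lies at -0.74, -0.74 and -0.41 at its upstream measured probes, at 0.59 at the next one and at 0.09 at the last, and the Gja1 point at 1.83 is the AY427559 probe.

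Pde3a, the oocyte phosphodiesterase that breaks down cyclic AMP and that cyclic GMP inhibits, was read at low signal on both arrays. The probe for ENSMUST00000043259 (chr6:141448762-141448821, plus strand) read 238 and 195, a log2 difference of -0.26 with a scanner error of 0.21. The probes for NM_018779 read 63.7 and 66.0 (chr6:141447588-141447647) and 35.7 and 32.6 (chr6:141447805-141447864). Their differences were 0.08 and -0.10, within scanner errors of 0.23 and 0.27, and the latter was 0.04 on the spike-in scale. The probe for the cDNA AK004638 (chr6:141419699-141419758), the farthest upstream, read 3.10 and 3.69 and was not well above background on either array. So 2 of the 3 measured Pde3a probes lay below 0 and 1 above, and none was 1.5-fold apart.

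The member genes of the cyclic GMP supply, Npr2 and Nppc, lay close to 0 too. Npr2, the guanylyl cyclase receptor on granulosa and cumulus cells, read 1733 and 1926 at the probe printed above, a log2 difference of 0.18 with a scanner error of 0.20. Its other probe for NM_173788 (chr4:43664035-43664094, plus strand) read 4998 and 5169, a difference of 0.08. Nppc, which encodes the C-type natriuretic peptide that activates this receptor, read 56.9 and 55.8 at its probe for NM_010933 (chr1:88563020-88563079, minus strand), only 4.43 and 3.53 times the lowest signal that counted as measured. Its difference was 0.00 with a scanner error of 0.23, with values from -0.05 to 0.14 over the other settings, so its direction flips with scaling. The cumulus and granulosa markers beside them had a median log2 difference of 0.09 over 26 probes, and their summed signal was 566 times the 75th percentile on the wild-type and 582 times on the knockout array. Of those markers Has2, the hyaluronan synthase of cumulus expansion, was at least 2-fold higher at 1.16, and Star, the cholesterol transporter of steroid synthesis, was lowest at -0.96. The part of follicle cell RNA in the Npr2, Nppc and Gja1 values, or in those of the other members, was not tested.

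Among the connexins, Gja4 read alike and Gja1 was higher on the knockout array by about the same small amount at its bright probes. Gja4 encodes connexin 37, which the oocyte adds to the junctions with its cumulus cells, and its probe for NM_008120 (chr4:126988848-126988907, minus strand) read 520 and 528. The log2 difference was 0.06 with a scanner error of 0.20. Gja1 encodes connexin 43, which joins granulosa and cumulus cells to each other. Its bright probes, all for NM_010288, read 10769 and 12323 (chr10:56109814-56109873), 3317 and 3982 (chr10:56108488-56108978) and 1153 and 1364 (chr10:56097212-56097271). The differences were 0.23, 0.30 and 0.28, each above its scanner error of 0.20 and the largest of them 1.23-fold. Each was smaller than the standard deviation of all probe differences in its signal range, 0.24 for the first and 0.33 for the others. These 3 probes read parts of 1 transcript in the same RNA pools and are not replicates.

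The member probe at least 2-fold apart was that of Gja1 for AY427559, and it was dim. It read 21.2 for wild type and 73.7 for the knockout, 1.65 and 4.66 times the lowest signal that counted as measured, with scanner signal errors of 3.64 and 8.22. Its log2 difference was 1.83 with a scanner error of 0.30, or 3.56-fold, and fell to 0.70 with normexp background correction, under 2-fold. That correction adds an offset of 50 to every signal, so it shrinks differences at dim probes by construction. Among the dimmest 20% of probes, where it lies, 5.59% of probes were at least 2-fold higher on the knockout array. The overlapping probe for AY427558 read 17.5 and 31.7, a difference of 0.89 with a scanner error of 0.36, which was 1.02 on the spike-in scale. These probes share 49 of their bases, so they measure largely the same sequence.

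The other dim Gja1 probes did not point 1 way. The probe for XM_011243118 read 9.56, not well above background, for wild type and 20.4 for the knockout, at least 1.62-fold higher there. The probe for XM_011243119 read 28.9 for wild type and 16.8, not well above background, for the knockout, at least 1.68-fold lower there. Such a bound sets the brighter array's signal against the higher of the other array's own signal and its lowest signal well above background. The probe for XM_006512541 read 7.99 and 3.92 and was well above background on neither array. The XM_011243119 probe shares a short upstream stretch with the AY427558 probe, which was higher on the knockout array. Most of the AY427558 probe is instead the run of 49 bases it shares with the AY427559 probe. Levels of different probes are not comparable, so no share of the Gja1 transcript forms is given.

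**Figure D3:**
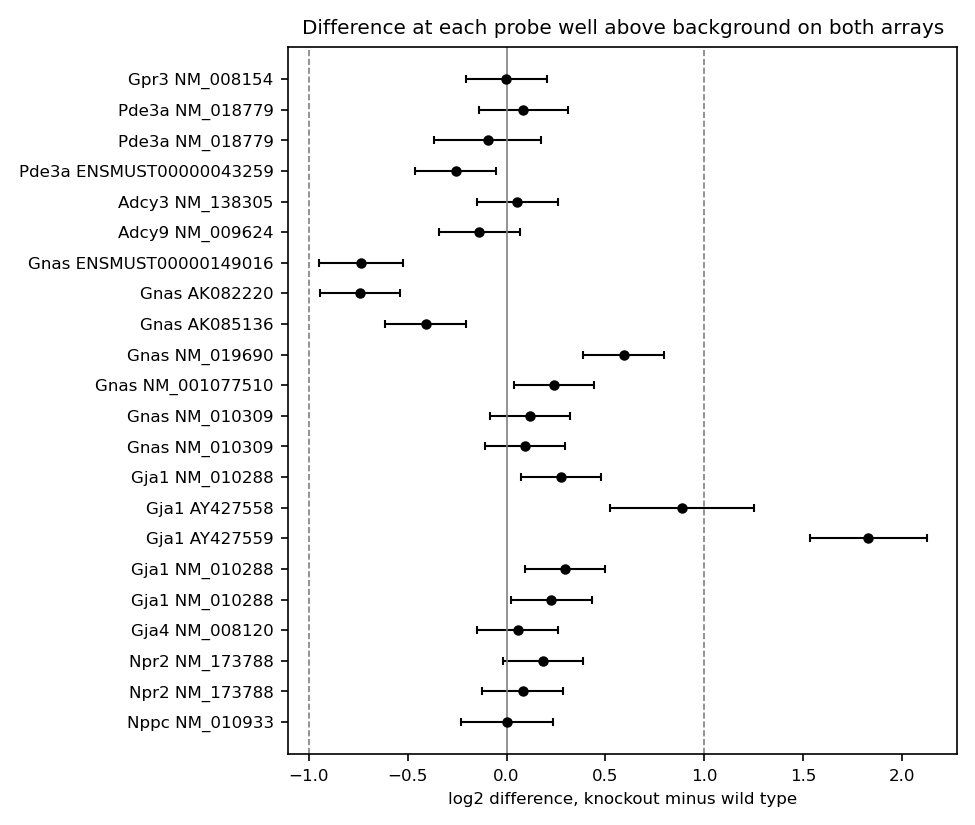
Log2 difference, knockout minus wild type, at the 22 member probes well above background on both arrays, with the combined scanner error as bars, 0 as a solid line and 2-fold as dashed lines. The Gja1 probe for AY427559 at 1.83 lies past 2-fold, and 11 of the 22 bars reach 0.

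Around the members, 84 further genes of the same pathways were listed by role, 83 of them on the array and 63 measured on both arrays at 104 probes. At least 2-fold higher on the knockout array were 3 of the 104 probes and at least 2-fold lower was 1, or 2.88% and 0.96%, against 2.72% and 1.86% of all probes. Their median difference was 0.06. With normexp background correction, 1 of the 104 probes was at least 2-fold apart. In that setting 0.84% of all probes were higher and 0.67% lower by that much. Probes of Pde5a, Pkib and Gjd3 that were measured on 1 array with a bound past 2-fold are given below and were chosen after their values were seen.

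The Gnal probe differed most among receptors and G proteins. Gnal encodes the olfactory relative of the stimulatory alpha subunit, and its probe for NM_177137 read 618 and 99.0, a log2 difference of -2.61 or 6.10-fold lower on the knockout array. It ran from -2.62 to -2.07 over the other settings, and its other probe, for AK035952, was not well above background on either array. Gpr6, the third receptor of the Gpr3 family, read 45.9 and 50.4, a difference of 0.17. The inhibitory subunit genes Gnai2, Gnai3 and Gnai1 were at 0.11, 0.23 and 0.61. The Gnai1 probe read 787 and 1174, 1.52-fold higher on the knockout array with a scanner error of 0.20, and it ran from 0.56 to 0.74 over the other settings. Rgs2, a regulator of G protein signalling, was highest at 0.63, the mean of disagreeing probes. Its bright probe, for NM_009061, read 69214 and 73444, a difference of 0.12, and its dim probe, for ENSMUST00000134817, read 31.9 and 68.4, a difference of 1.13 that was 0.50 with normexp. Over this role 1 probe of 15 was at least 2-fold higher and 1 lower.

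The other adenylyl cyclase genes were measured at few probes, all above 0. Of 8 genes 4 were measured, at 5 probes with a median difference of 0.54, which was 0.20 with normexp. Adcy7 was highest at 1.08, with signals of 190 and 393, and it was 0.89 with normexp, under 2-fold. Adcy6 was lowest at 0.33, the mean of 0.18 at a probe reading 836 and 928 and 0.48 at a dim probe reading 24.0 and 32.8. The Adcy5 and Adcy10 probes were also dim, with signals of 37.1 and 52.6 and of 20.2 and 31.4. The rest, Adcy1, Adcy2, Adcy4 and Adcy8, were not measured on both arrays, and Adcy8 had 1 probe at least 1.70-fold higher on the knockout array and 1 at least 1.38-fold lower. Adcy7 is a cyclase of blood cells among others, and it lay on the same side as 11 of the 14 blood and immune cell marker genes. That list had a median difference of 1.45 and a summed signal of 102 and 128 times the 75th percentile. Its 3 red cell genes, Hba-a1, Hbb-b1 and Alas2, were lower at -1.62, -1.23 and -1.03. The other 11 were higher as means over probes, from Ptprc at 0.84 to S100a9 at 3.27. The summed signal, 82038 and 100755 unscaled, includes Hba-a1 probes at 36085 and 11144 and at 11089 and 3655. None of the 14 genes was missing on either array. The part of blood cell RNA in the cyclase values was not tested.

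Phosphodiesterase genes lay on both sides of 0, with a median of -0.02 over 28 probes, or 0.11 on the spike-in scale. Pde9a, which breaks down cyclic GMP, was highest at 1.24, with dim signals of 22.7 and 52.6, and it was 0.47 with normexp. Pde4b and Pde4d, which break down cyclic AMP and act in granulosa cells, were lowest at -0.66 and -0.54. Pde5a, which breaks down cyclic GMP in the follicle, was at 0.21 at its probe for NM_153422, with signals of 298 and 336. Its probe for ENSMUST00000198314 read 13.8, not well above background, for wild type and 47.7 for the knockout, at least 3.54-fold higher there. Pde3b, the closest relative of Pde3a, was at 0.45 over probes from 0.17 to 0.73. Over this role, among probes measured on both arrays, 1 was at least 2-fold higher and none lower.

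The protein kinase A list, which holds the kinase that cyclic AMP activates and its anchors, had all 16 genes measured and none of 32 probes at least 2-fold apart. The regulatory subunit gene Prkar2b was highest at 0.33 and the anchor gene Akap8 lowest at -0.29. The catalytic subunit gene Prkaca was at 0.01 and -0.04 at its probes, or 0.14 and 0.10 on the spike-in scale. A probe of the kinase inhibitor gene Pkib, not well above background for wild type, read 5.26 and 27.9, at least 2.22-fold higher on the knockout array, and the 3 Pkib probes measured on both lay at -0.18, 0.22 and 0.74. The cyclic GMP list had 9 of 10 genes measured and none of 13 probes at least 2-fold apart. The soluble guanylyl cyclase subunit genes Gucy1a1 and Gucy1b1 were highest at 0.89 and 0.85, with signals of 158 and 286 and of 207 and 364, and Gucy1a1 was 1.02 on the spike-in scale. The atrial natriuretic peptide gene Nppa was lowest at -0.40. Impdh2, an enzyme of guanine nucleotide supply, was at 0.10, with probes on both sides of 0.

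Most connexin genes other than Gja1 and Gja4 were not measured on both arrays. Of the 22 connexin, pannexin and junction scaffold genes 8 were measured, and 14, among them Gja3, Gja10 and Gjd2, were not. None of the 11 probes measured on both was at least 2-fold apart, and their median was -0.05, or 0.09 on the spike-in scale and 0.02 with normexp. Gja5 was highest at 0.28, from probes at -0.05 and 0.60. Gjc1, which encodes connexin 45, was at 0.06, and from -0.02 to 0.19 in the other settings. The Gjd3 probe read 33.1 for wild type and 11.8, not well above background, for the knockout, at least 2.05-fold lower there.

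**Figure D4:**
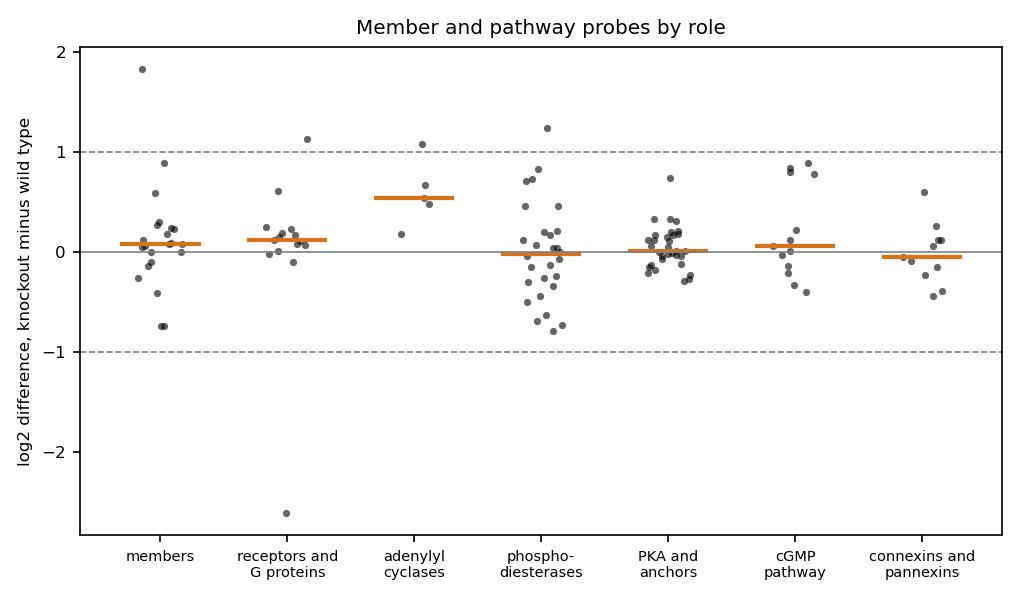
Log2 difference, knockout minus wild type, of each probe well above background on both arrays, for the members and for the other pathway genes by role, with the median as an orange bar and 2-fold as dashed lines. The points past the lines are Gja1 at 1.83, Rgs2 at 1.13, Gnal at -2.61, Adcy7 at 1.08 and Pde9a at 1.24.

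**Figure D5:**
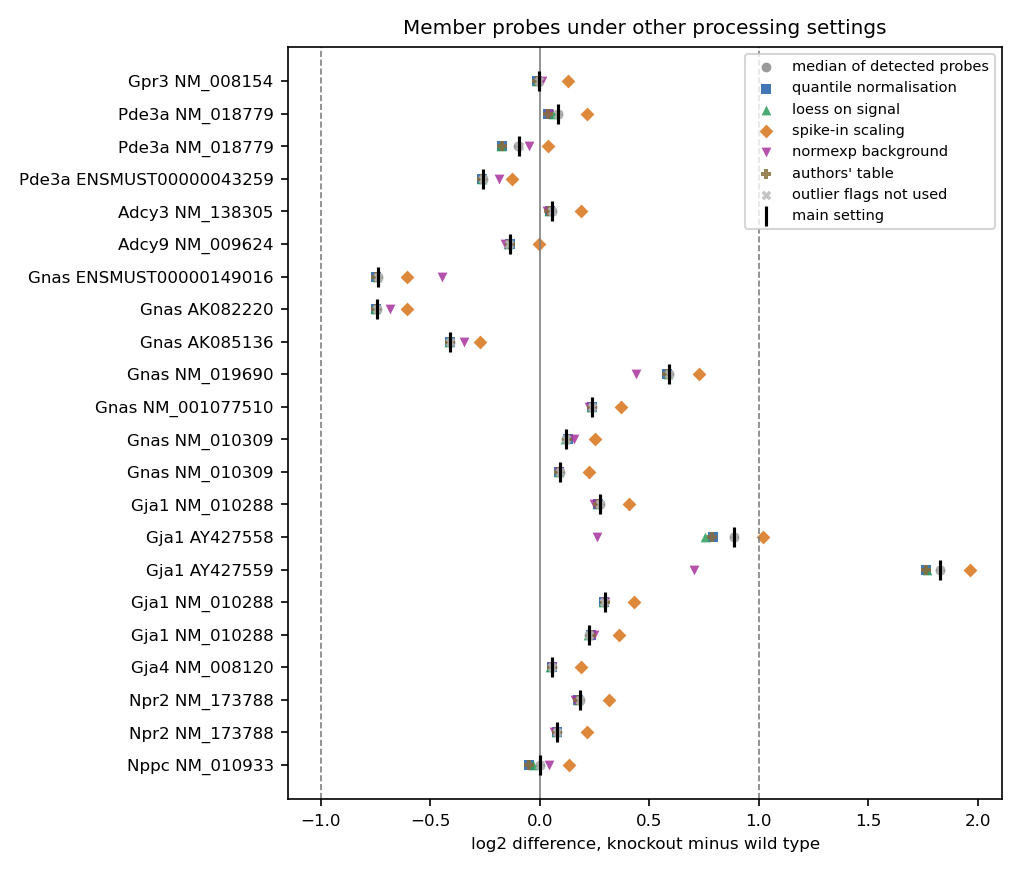
Log2 difference, knockout minus wild type, at the 22 member probes in the main setting (black tick) and in 7 other settings of scaling, background and outlier flags (symbols as in the legend), with 2-fold dashed. The Gja1 probes for AY427559 and AY427558 move most, to 0.70 and 0.26 with normexp, and the spike-in symbols lie to the right of the ticks.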

How the data were processed

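Intensity on a linear scale was used from the deposited scanner files, made with version 10.7.1.1 of Agilent Feature Extraction per the file headers, while the submitters' processing notes name 9.5.1.1. The authors' processed intensity is background-subtracted and detrended within each array, per the file headers. In the deposited table of both arrays, also intensity, the sorted columns are the same within 0.0243%, so it is quantile normalised. Its log2 values followed the scanner files with r = 0.99997 for each genotype, so its scale is known and genes are not centred. Its differences followed them with r = 0.997 across probes, so its direction is known.

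Here log2 of the processed signal was averaged over spots of a probe, 88 and 84 outlier spots were left out, and each array's 75th percentile (808 and 790) was subtracted. Differences were read only at probes well above background on both arrays, and none of the member spots was saturated. Probes kept the symbol in the files. The scanner error combines both signal errors. The members and lists were chosen with earlier results of these data known. Named are all members, pathway genes at least 2-fold apart and the highest and lowest gene by role, of which 1 is not reported here, and further pathway genes were named after their values were seen. The scaling step was tested on simulated data. The work used Python 3.11.15, with limma 3.58.1 for normexp (offset 50). Precision is limited by having 1 array per genotype.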

Additional observations from a re-analysis of the deposited data

How the results depend on the processing

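No paired analysis was possible because each genotype has 1 array. The count of member probes at least 2-fold higher was 1. It became 2 with spike-in scaling (8 probes), 3 without a filter on dim probes and 0 with normexp, with a filter at 4 times the lowest signal well above background, with the mean over a gene's probes and with its brightest probe. It was also 0 without the Gja1 probes of alternative upstream exons, a setting chosen after the data were seen. The stricter filter and the last 3 settings leave out or average the dim Gja1 probe by construction. The normexp setting adds an offset of 50 to every signal, which by construction shrinks differences at dim probes. How much of its change comes from the offset was not tested, and for the rest the cause was not tested. The count of lower probes was 0 in all 13 settings tried. The median of the members ran from 0.00 (mean over a gene's probes) to 0.22 (spike-in scaling). Of 154 values of member probes under 7 settings, 151 moved by less than the scanner error, and 3 of the 22 probes changed sign in some setting, those of Gpr3, Nppc and Pde3a NM_018779. The count of pathway probes at least 2-fold apart was 4, became 1 with normexp and was 4 or 5 in the other 6 settings. With normexp the shares of all probes fell too, to 0.84% higher and 0.67% lower. Signals near background limit the dim Gja1, Pde3a and Nppc values.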
